A study of Mus musculus with 2 samples.

Results

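The genes described here were 43 mouse genes that encode the machinery of neurotransmitter release: synaptic vesicle proteins, calcium sensors, SNARE proteins and their regulators, active zone scaffolds, vesicular transmitter transporters and proteins of vesicle endocytosis. They were chosen by name and not by a measured value, from the 21938 protein-coding genes of the annotation. Earlier results of these data were known when the list was made, so comparisons of the members with all coding genes are descriptions only. Of the 219409 positions listed as N6-methyladenosine (m6A) in at least 1 library, 1853 lay inside a member gene on its own strand.

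Both libraries were GLORI libraries of poly(A)+ RNA, 1 from cerebellum and 1 from cerebrum, made from the F1r cross, in which the mother is C57 and the father PWK, with the donor recorded as female and P0 (the day of birth). In this assay glyoxal and nitrite deaminate unmethylated adenosines, which are then read as G, so an A that persists in the reads marks a methylated base. A site is called listed here where its position is in the deposited list of a library, and the lists held positions without methylation rates or read counts. With 1 library per tissue, differences between the tissues are given as counts, no test between them was possible, and the depth behind each site is unknown. A position missing from a list can be unmethylated, methylated at a rate too low for the study's cut, weakly expressed or thinly covered. The number of listed sites in a gene can therefore move with its expression, which the lists do not give, and fewer cells of a type cannot be told apart from less RNA per cell.

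When a nerve terminal is depolarised, calcium entering at the active zone binds synaptotagmin on docked vesicles, and a SNARE complex of syntaxin, SNAP25 and synaptobrevin fuses the vesicle with the plasma membrane. Scaffolds such as Bassoon, Piccolo, RIM and ELKS hold vesicles and calcium channels together at this site, Munc13 proteins prime the vesicles, and dynamin and its partners retrieve the membrane afterwards. The methyltransferase complex that deposits m6A favours the motif DRACH (D is A, G or T, R is A or G, and H is A, C or T), and m6A in mRNA is best known from long exons and from the neighbourhood of the stop codon.

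The tissue labels were checked with marker genes. DRACH sites were listed in 13 of 13 forebrain markers in the cerebrum library and in 6 of 13 in the cerebellum library, and the forebrain regulator Tbr1 had 17 sites in the cerebrum library and 0 in the cerebellum library. Of 10 cerebellum or hindbrain markers, 5 had a site in the cerebellum library and 2 in the cerebrum library, with En1, En2 and Barhl1 at 5, 8 and 11 sites against 0. The other two with sites had more in the cerebrum library, Cbln1 with 11 and 15 and Zic4 with 4 and 18. Atoh1, Pax2, Cbln3, Pcp2 and Hoxa2 had no site in either library. Markers of the oligodendrocyte lineage had sites in 4 of 4 genes in both libraries, astroglial markers in 3 and 4 of 4, microglial markers in 2 and 3 of 3 and endothelial markers in 1 and 1 of 3, and their part in the results was not tested. The cerebrum list was deposited under a name with the abbreviation used for cerebellum, and each list was assigned by the tissue in its sample record. The lists also held 14 positions on the Y chromosome in the cerebellum library and 30 in the cerebrum library, although the donor was recorded as female, and the source of these positions was not tested. None of the members lies on the Y chromosome, while Syn1 and Syp lie on X.

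All 43 members had a listed position in at least 1 library, and 41 had one in a DRACH motif. A DRACH site was present in 37 of 43 members in the cerebellum library, against 35% of all coding genes, and in 40 of 43 in the cerebrum library, against 45.2%. The members held 446 DRACH sites in the cerebellum library and 607 in the cerebrum library. They united to 704 positions, of which 349 were found in both. DRACH sites made up 60.8% (57.2 to 64.2) of the 734 listed positions of the members in the cerebellum library and 39.4% (37 to 41.9) of 1541 in the cerebrum library, where all coding genes had 63.2% and 47.5%. The median was 6 DRACH sites per member in the cerebellum library and 9 in the cerebrum library, and the 10104 coding genes with a DRACH site in either library had medians of 2 and 5. Among 94 further genes of the same pathway, 68 and 74 had a DRACH site, with medians of 2 and 4 sites. Vamp1 and Ppfia3 had no DRACH site, and their 2 and 5 listed positions, all in the cerebrum library, lay outside the motif.

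**Figure D1:**
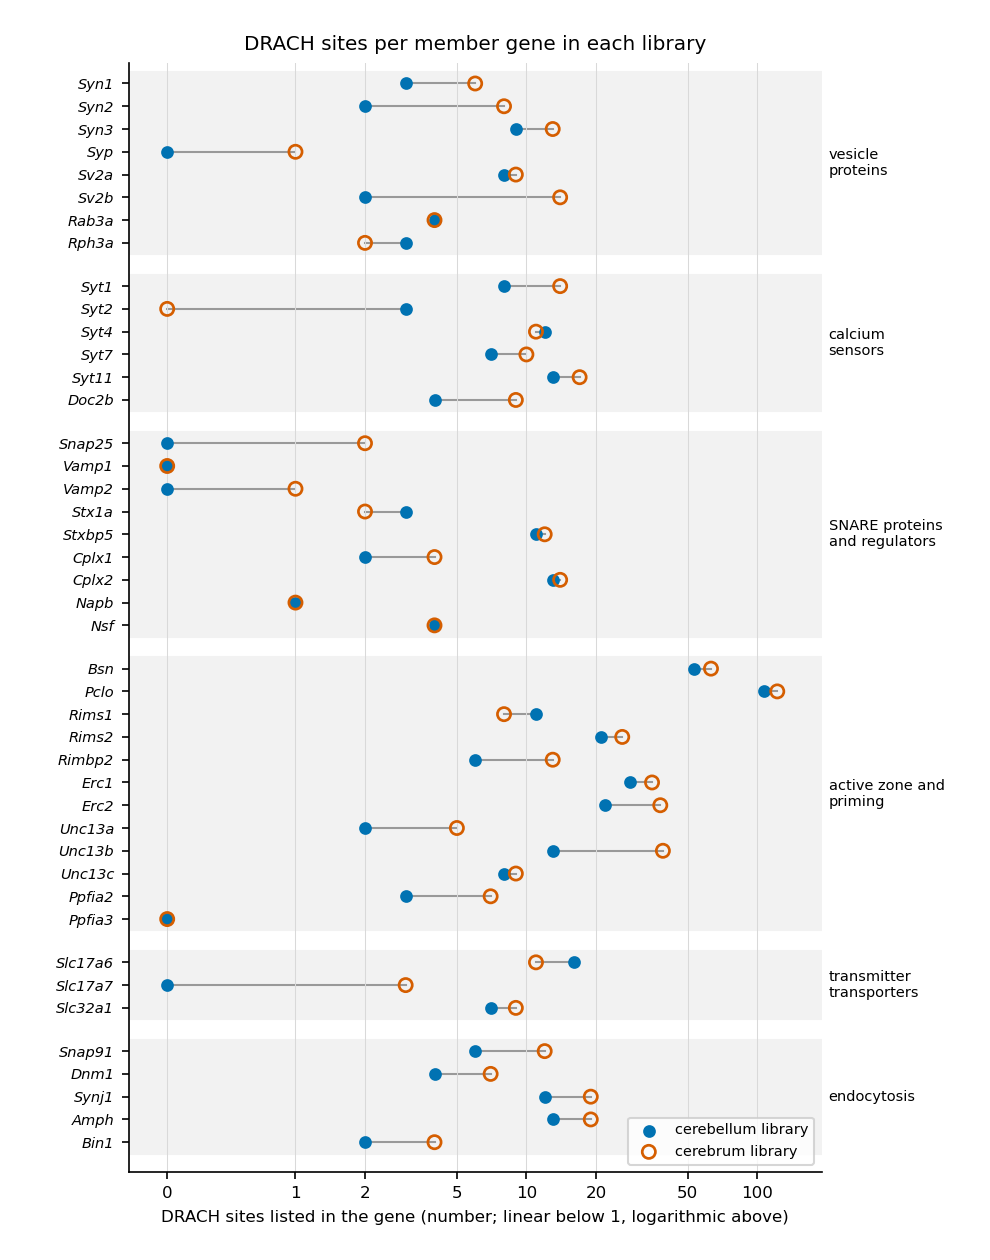
DRACH sites listed inside each of the 43 member genes, grouped by role, in the cerebellum library (filled points) and the cerebrum library (open circles); the horizontal axis is the number of sites, linear below 1 and logarithmic above. Pclo and Bsn stand at the right with 107 and 122 and with 53 and 63 sites, and Vamp1 and Ppfia3 stand at 0 in both libraries.

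The vesicle proteins held 31 DRACH sites in the cerebellum library and 57 in the cerebrum library. The synapsins, which tether vesicles to one another and to actin, differed from one another: Syn1 had 3 and 6 sites, Syn2 had 2 and 8, and Syn3 had 9 and 13. Syn3 thus had the most sites of this family in both tissues. In Sv2a, a vesicle glycoprotein and the target of the antiepileptic drug levetiracetam, 8 and 9 sites were listed, of which 7 were shared. Its relative Sv2b had 2 sites in the cerebellum library and 14 in the cerebrum library. That ratio of 7 was the highest among the members with at least 5 DRACH sites. The small GTPase Rab3a, which marks vesicles for docking, had the same 4 sites in both libraries, and its effector Rph3a had 3 and 2. Syp, which encodes the abundant vesicle membrane protein synaptophysin, had 0 and 1.

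In Sv2a the sites lay mostly at the start of the transcript. Exon 2 of the isoform Sv2a-201, which is 969 nt long and holds parts of the 5′ UTR and of the coding sequence, had 5 of its 13 DRACH adenosines listed in the cerebellum library and 7 in the cerebrum library. The last exon of 1789 nt had 3 and 2 of 37. Sv2b was arranged the other way, with 2 and 12 of the 67 DRACH adenosines of its last exon listed. The 3 sites below are shown because they carry the points made here: the shared Syn3 site nearest to a stop codon, and the cerebrum-only sites nearest to the stop codon of Sv2b and Syn2, the members with the largest ratios. Each sequence is the 29 bases around the methylated A on the transcript strand of GRCm38, the C57 reference, with the 5-base motif in capitals. Bases that differ on the PWK allele are not shown.
Syn3, chr10:86055522-86055550, minus strand, CDS of exon 14: cagtctcttctcTGACTagcccctatcca
Sv2b, chr7:75117604-75117632, minus strand, CDS of exon 13: ttcgattgccagAGACTcgagagcaagtc
Syn2, chr6:115274342-115274370, plus strand, 3′ UTR in exon 11: tttcaaaacagaAAACTtaagccaaaaat
The Syn3 adenosine lay 5 nt before the end of the coding sequence, so that its motif runs into the stop codon. The site in Sv2b lay 24 nt before the end of the coding sequence and the one in Syn2 32 nt behind it.

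The calcium sensors held 47 and 61 DRACH sites. The fast sensors of evoked release are Syt1 and Syt2. Syt1 had 8 sites in the cerebellum library and 14 in the cerebrum library, of which 3 and 8 lay in introns. Syt2 had 3 in the cerebellum library and 0 in the cerebrum library. Syt2 was the only member with DRACH sites in the cerebellum library alone. Of the 136 DRACH adenosines of its longest coding isoform, 2.21% (0.753 to 6.28) and 0% (0 to 2.75) were listed, with overlapping intervals. Its sites all lay in the 3′ UTR of exon 9, which holds 102 DRACH adenosines. They are printed, chosen after the counts were seen, as the only DRACH sites of this gene. Other members also had single sites in the cerebellum library alone.
Syt2, chr1:134747838-134747866, plus strand, 171 nt behind the stop codon: ttctctttttaaAGACCaacttccttttg
Syt2, chr1:134748371-134748399, plus strand, 704 nt behind the stop codon: tgatgccatcatAGACAccctcttgtcag
Syt2, chr1:134751649-134751677, plus strand, 3982 nt behind the stop codon: acctgttttacaGAACTgcctgctcctgg
Syt7, a high-affinity sensor of asynchronous release, had 7 and 10 sites, and Doc2b, which acts in spontaneous release, had 4 and 9.

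Syt4 and Syt11, related synaptotagmins that do not act as fast calcium sensors, were the most densely listed genes of this role. Syt4 had 12 and 11 DRACH sites, of which 10 were shared, and Syt11 had 13 and 17, of which 10 were shared. In both genes a long internal coding exon carried many of them. Exon 2 of Syt4, 815 nt long, had 6 and 7 of 17 DRACH adenosines listed, and exon 3 of Syt11, 824 nt long, had 8 and 9 of 24. The shared Syt11 site nearest to its stop codon, 149 nt before the end of the coding sequence in exon 5, had the following surroundings.
Syt11, chr3:88747834-88747862, minus strand: gttccttgtcatTGACTtcgatcgcacta

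The SNARE proteins and their regulators held 34 and 40 DRACH sites, and the core SNARE genes had few of them. Snap25 and Stx1a encode the plasma membrane SNAREs, and Vamp1 and Vamp2 those of the vesicle. Snap25 had 0 sites in the cerebellum library and 2 in the cerebrum library, Vamp1 had 0 and 0, Vamp2 had 0 and 1, and Stx1a had 3 and 2. The longest coding isoforms of these genes held between 35 DRACH adenosines (Vamp2) and 46 (Stx1a). Among other members with few candidate bases, Rab3a had 4 and 4 of 30 listed and Slc32a1 7 and 9 of 33. Slc17a7 had 0 and 3 of 33, and Syp 0 and 1 of 39. The part of the number of candidate bases in the low counts was not tested. A count of 0 of 42 in Snap25 allows a share of up to 8.38% (upper 95% Wilson limit), which is as high as the pooled share of the members in that library, 8.37%. The 2 Snap25 sites lay in the 3′ UTR, 605 and 715 nt behind the stop codon, and are printed, chosen after the counts were seen, as the only DRACH sites of this gene.
Snap25, chr2:136781734-136781762, plus strand: tgagaactaaatAGACTtttagattccta
Snap25, chr2:136781844-136781872, plus strand: tgctcagtattgGGACActgtcaagatta

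Among the regulators of SNARE assembly, the complexins bind the assembled SNARE complex and control the last step of fusion. Cplx2 had 13 and 14 DRACH sites, of which 12 were shared, and Cplx1 had 2 and 4, of which 1 was shared. Stxbp5, the syntaxin-binding inhibitor tomosyn, had 11 and 12, with 9 shared, and 9 and 10 of the 23 DRACH adenosines of its last exon were listed. The ATPase Nsf, which takes spent SNARE complexes apart, had the same 4 sites in both libraries, and its adaptor Napb had 1 and 1, at different positions. In Cplx2, whose 3′ UTR is 4208 nt long, the sites lay between 17 nt before and 1402 nt behind the stop codon, apart from 1 in the cerebrum library at 3983 nt. The shared site of Cplx2 nearest to the stop codon, 17 nt before the end of the coding sequence, fell at the same codon of Cplx1, codon 130, where it was listed in the cerebrum library alone, and 27 of 29 bases were identical around both.
Cplx2, chr13:54379679-54379707, plus strand: agggccgctgcaGGACAtgttcaagaagt
Cplx1, chr5:108520131-108520159, minus strand: tgggccactgcaGGACAtgttcaagaagt

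The active zone scaffolds and priming factors held most of the members' sites, with 274 of 446 DRACH sites in the cerebellum library and 365 of 607 in the cerebrum library. Bsn and Pclo, which encode the giant scaffolds Bassoon and Piccolo, held 160 and 185 of them together. Bsn had 53 and 63 sites, of which 41 were shared, and Pclo had 107 and 122, of which 90 were shared. Set against their candidate bases, 17.3% (13.4 to 22, 95% Wilson interval) and 20.3% (16.1 to 25.3) of the 295 DRACH adenosines of the longest Bsn isoform were listed in the cerebellum and cerebrum library, and 21% (17.6 to 24.9) and 22.7% (19.1 to 26.6) of the 481 of Pclo. The intervals of the 2 genes overlapped in either library.

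In both scaffolds many sites lay in the longest coding exons. Exon 5 of Bsn, 6642 nt long, had 27 and 31 of 121 DRACH adenosines listed, exon 6, 2077 nt long, had 7 and 7 of 36, and the last exon of 3876 nt had 14 and 15 of 76. Exon 5 of Pclo, 5059 nt long, had 37 and 34 of 121, and exon 7, 2182 nt long, had 21 and 21 of 50. Other exons of some length had few sites, with 0 and 4 of 15 in exon 3 of Bsn (891 nt), 0 and 1 of 13 in its exon 7 (809 nt), and 2 and 1 of 24 in exon 4 of Pclo (711 nt). In the last exon of Pclo, 4 of its 108 DRACH adenosines were listed in each library although it is 4714 nt long. Over all its coding isoforms, Pclo had 98 and 106 sites in the coding sequence and 4 and 7 in 3′ UTRs. Sites also lay close together: 3 DRACH sites within 30 bases were the most found, in 8 such windows (Syt4 and Bin1 were not searched), and the 4 windows whose sites were all shared between the tissues are printed, with each motif in capitals.
Bsn, chr9:108099349-108099378, minus strand, 3′ UTR: gggaGAACTttacAAACAttaGGACCctaa
Pclo, chr5:14680783-14680812, plus strand, CDS of exon 6: gAAACTcttcctgctgAGACAatGGACTct
Pclo, chr5:14713922-14713951, plus strand, CDS of exon 7: aagtagAGACCttGAACCTGACTatcccac
Synj1, chr16:90938713-90938742, minus strand, CDS of exon 32: gccgGAACCcttttacAGACAGGACTgctg
The shared Pclo site nearest to the stop codon lay 31 nt before the end of the coding sequence.
Pclo, chr5:14858842-14858870, plus strand: gtcaattggcacAAACTgttgatgagtcc

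The ELKS proteins Erc1 and Erc2 organise release sites beside the RIM proteins. Erc1 had 28 and 35 DRACH sites with 26 shared, and Erc2 had 22 and 38 with 18 shared. Last exons and 1 long coding exon carried them in both genes: 21 and 25 of 85 DRACH adenosines in the last exon of Erc1 and 13 and 18 of 58 in that of Erc2, and 5 and 7 of 16 in exon 3 of Erc1 and 6 and 9 of 19 in exon 2 of Erc2. Erc2 also had 1 and 10 intronic DRACH sites, and Erc1 had 0 and 0. Among the RIM genes, whose products link Rab3 on vesicles to calcium channels, Rims2 had 21 and 26 sites with 15 shared, and Rims1 had 11 and 8 with 2 shared. The complete isoform available for Rims1 is a short one of 2294 nt, so its listed shares of 17.4% and 6.52% describe that isoform and not the full gene. Rimbp2, which ties RIM to calcium channels, had 6 and 13 sites.

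Of the Munc13 priming factors, Unc13b had 13 and 39 DRACH sites, a 3-fold difference between the libraries, whereas Unc13a had 2 and 5 and Unc13c had 8 and 9. A coding exon of 8367 nt, exon 10 of the longest Unc13b isoform, had 8 and 24 of its 226 DRACH adenosines listed. This is 3.54% and 10.6%, where exon 5 of Bsn had 22.3% and 25.6% and exon 5 of Pclo 30.6% and 28.1%. The coding sequence of the principal Unc13b isoform, with 1590 residues and 105 DRACH adenosines, is too short to hold exon 10 as a whole. Unc13a had 1 and 2 listed of 117 in a last exon of 5307 nt. The liprin Ppfia2, which recruits active zone components, had 3 and 7 DRACH sites of which 2 and 4 were intronic, and 1 and 2 of 120 DRACH adenosines of its last exon of 4830 nt were listed. Long exons thus differed in their listed share, and the parts of expression and of isoform use in this were not tested.

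**Figure D2:**
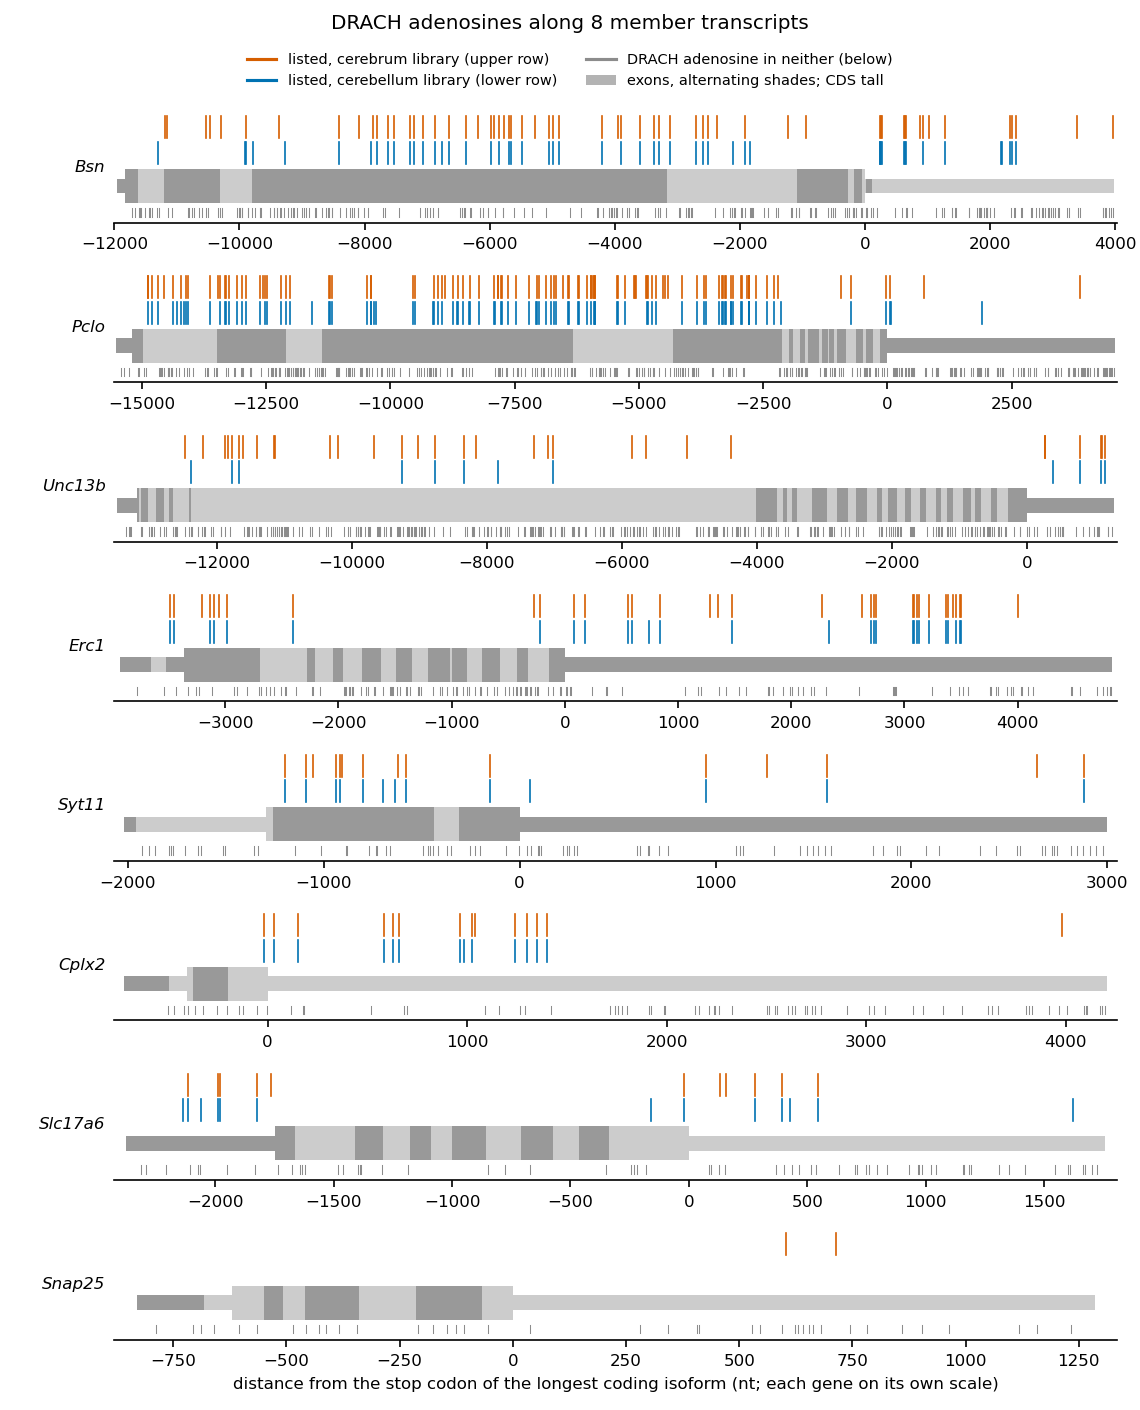
Exons and DRACH adenosines of the longest coding isoform of 8 members, with the distance from the stop codon in nt on the horizontal axis and each gene on its own scale; ticks above the exons mark adenosines listed in the cerebrum library (upper row) and the cerebellum library (lower row), and ticks below mark DRACH adenosines in neither. Sites lie along the longest coding exons of Bsn and Pclo, lie mostly within 1402 nt behind the stop codon of Cplx2, and number 0 and 2 in Snap25.

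The vesicular transmitter transporters load glutamate (Slc17a6 or VGLUT2, Slc17a7 or VGLUT1) or GABA and glycine (Slc32a1 or VGAT) into vesicles. Slc17a6 had 16 sites in the cerebellum library and 11 in the cerebrum library, of which 8 were shared, Slc17a7 had 0 and 3, and Slc32a1 had 7 and 9 with 5 shared. Slc32a1 had the highest listed share of any member, with 21.2% (10.7 to 37.8) and 27.3% (15.1 to 44.2) of 33 DRACH adenosines, although these intervals overlapped those of Pclo. The 5′ UTR of Slc17a6 held 6 and 5 of its sites, the most of any member. In its exon 1, 715 nt long, 6 and 5 of 17 DRACH adenosines were listed. The members as a whole had 15 and 16 DRACH sites in 5′ UTRs, of which Slc17a6 held 6 and 5 and Sv2a 3 and 4. The shared Slc17a6 site nearest to the stop codon and the 3 cerebrum sites of Slc17a7, chosen after the counts were seen because this gene had DRACH sites in the cerebrum library alone, are the following.
Slc17a6, chr7:51669327-51669355, plus strand, 20 nt before the end of the CDS: gtacacctataaGGACCgagatgattatt
Slc17a7, chr7:45175023-45175051, plus strand, 8 nt before the end of the CDS: gccccctgtccgGGACTactgaccacggg
Slc17a7, chr7:45175064-45175092, plus strand, 34 nt behind the stop codon: gggcagtttccaGGACTtccactccatac
Slc17a7, chr7:45175531-45175559, plus strand, 501 nt behind the stop codon: ccgccgttcccaGGACTgattctcaccag
All 3 sites of Slc17a7 carried the motif GGACT.

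The endocytosis genes held 37 and 61 DRACH sites. Synj1, whose product synaptojanin acts in the removal of clathrin coats, had 12 and 19 sites with 11 shared, and 11 and 14 of these lay on its last exon of 2943 nt. Amph, the membrane-bending protein amphiphysin, had 13 and 19 with 12 shared, and 11 and 14 of the 27 DRACH adenosines of its last exon were listed. Its relative Bin1 had 2 and 4. The GTPase Dnm1, which pinches vesicles off, had 4 and 7 sites, all in the 3′ UTR. Snap91, the clathrin assembly protein AP180, had 6 and 12, of which 0 and 6 were intronic. The shared Amph site nearest to the stop codon lay 96 nt behind it.
Amph, chr13:19149925-19149953, plus strand, exon 21: actcttcatgatTGACAgactggtgccag

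The number of sites was then set against the number of candidate bases. Over the 41 members with a DRACH site, 397 of 4742 DRACH adenosines of the longest coding isoforms were listed in the cerebellum library (8.37%, 7.62 to 9.19), and 502 in the cerebrum library (10.6%, 9.74 to 11.5). For all coding genes with a DRACH site the shares were 5.05% and 8.61%, and for the other pathway genes 4.38% and 6.34%. Genes without a DRACH site were left out of each group. Sites off the longest coding isoform do not enter these shares. That isoform had 1 and 3 listed adenosines in Syn3, where the gene had 9 and 13 DRACH sites. In Rims2 it had 10 and 10, where the gene had 21 and 26. Bsn and Pclo held many of these sites, and the members without Bsn and Pclo stood at 6.18% (5.47 to 6.97) and 8.4% (7.57 to 9.3), the second of which includes the value of all coding genes. The median per gene was 5% and 8.49% over 41 members, 4.41% and 7.35% over all 43, and 2.7% and 6.02% over the coding genes. These intervals treat adenosines as independent and cover counting error only, and sites of 1 gene share its expression.

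**Figure D3:**
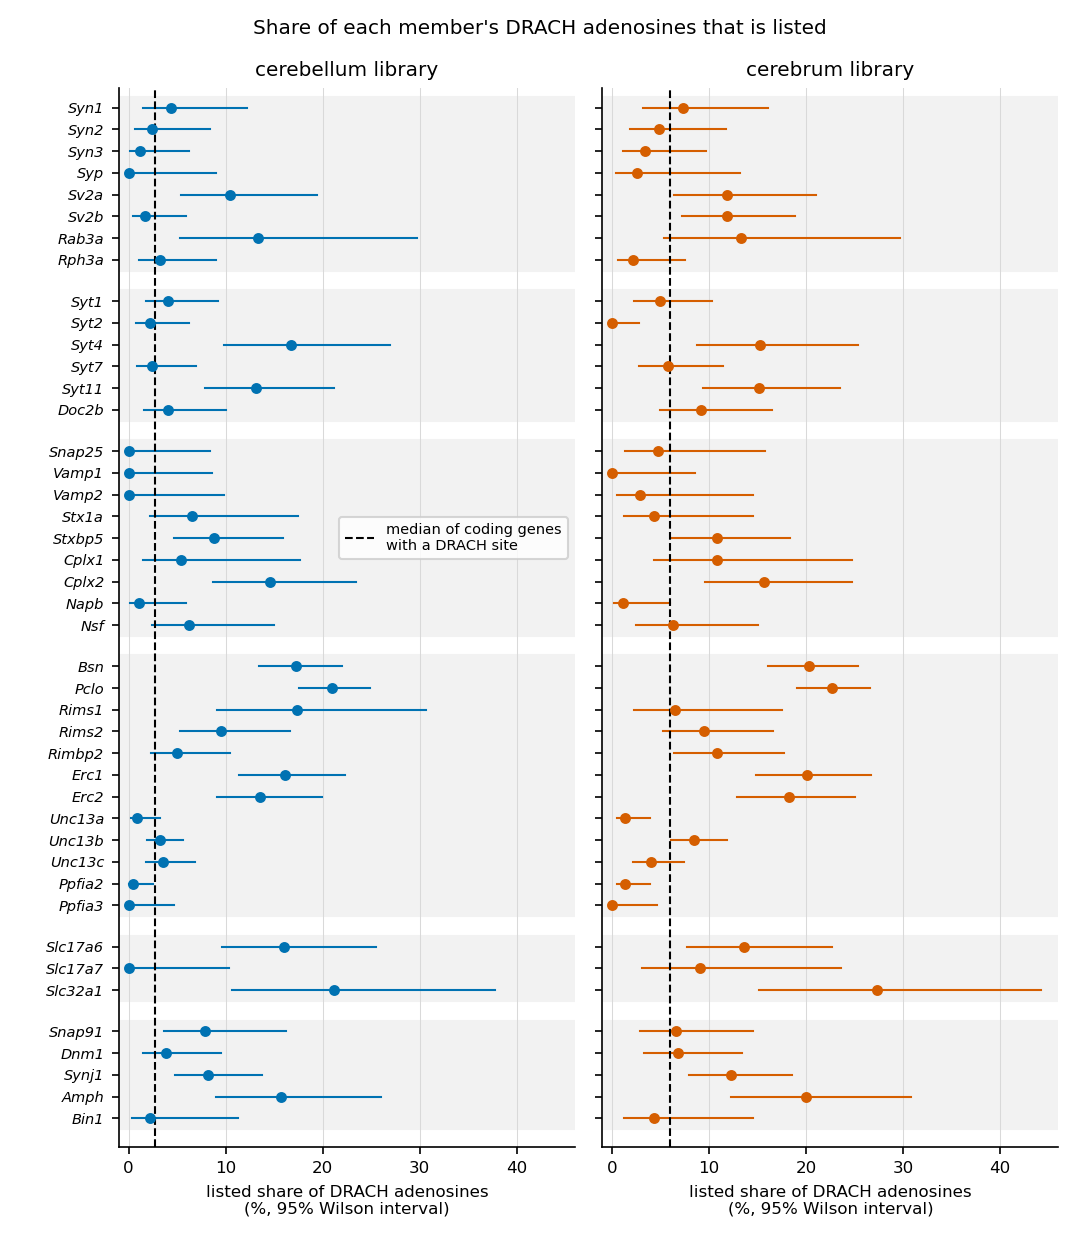
Share of the DRACH adenosines on the longest coding isoform of each member that is listed, in % on the horizontal axis, in the cerebellum library (left) and the cerebrum library (right), with 95% Wilson intervals; the dashed line is the median of coding genes with a DRACH site, 2.7% and 6.02%. Slc32a1, Pclo, Bsn and Erc1 have the highest or nearly the highest shares in both libraries, and the intervals of most other members overlap.

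The listed share of single members ran from 0 to 21.2% in the cerebellum library and from 0 to 27.3% in the cerebrum library. It reached 10% in 31.7% of the 41 members in the cerebellum library and in 41.5% in the cerebrum library, against 15.4% and 32.3% of all coding genes. After Slc32a1 and Pclo, the next highest in the cerebrum library were Bsn at 20.3%, Erc1 at 20.1% (14.8 to 26.7) and Amph at 20% (12.3 to 30.8). The intervals of these neighbours overlapped, so their order is not resolved. At the other end, Syp, Snap25, Vamp2 and Slc17a7 stood at 0 in the cerebellum library, Syt2 at 0 in the cerebrum library, and Napb at 1.1% in both. Unc13a and Ppfia2, with 220 DRACH adenosines each, were also low. Unc13a stood at 0.909% (0.25 to 3.25) and 1.36% (0.465 to 3.93), and Ppfia2 at 0.455% (0.0803 to 2.53) and 1.36% (0.465 to 3.93). Both lay below the intervals of Bsn, Pclo, Erc1 and Erc2 in both libraries.

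Exon structure went with the listed share. Within 100 nt of an exon junction, 25 of 1723 DRACH adenosines of the members were listed in the cerebellum library (1.45%) and 2.21% (1.61 to 3.01) in the cerebrum library. Beyond 100 nt the shares were 12.3% (11.2 to 13.5) and 15.4% (14.1 to 16.7). For all coding genes the values were 0.965% and 1.97% within this distance and 7.27% and 12.2% beyond it. By exon class, 0.471% (0.228 to 0.969) and 0.942% (0.562 to 1.58) of the DRACH adenosines of internal exons under 400 nt were listed. Internal exons of 400 nt or more had 17.7% (15.6 to 20.2) and 22.3% (19.9 to 24.9). Last exons of the members had 9.35% and 11.7%. In the members without Bsn and Pclo, the long internal exons stood at 10.5% (8.18 to 13.4) and 16.9% (13.9 to 20.3) and the last exons at 9.3% (8.06 to 10.7) and 11.8% (10.4 to 13.3), so that these classes overlapped in the cerebellum library and not in the cerebrum library.

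**Figure D4:**
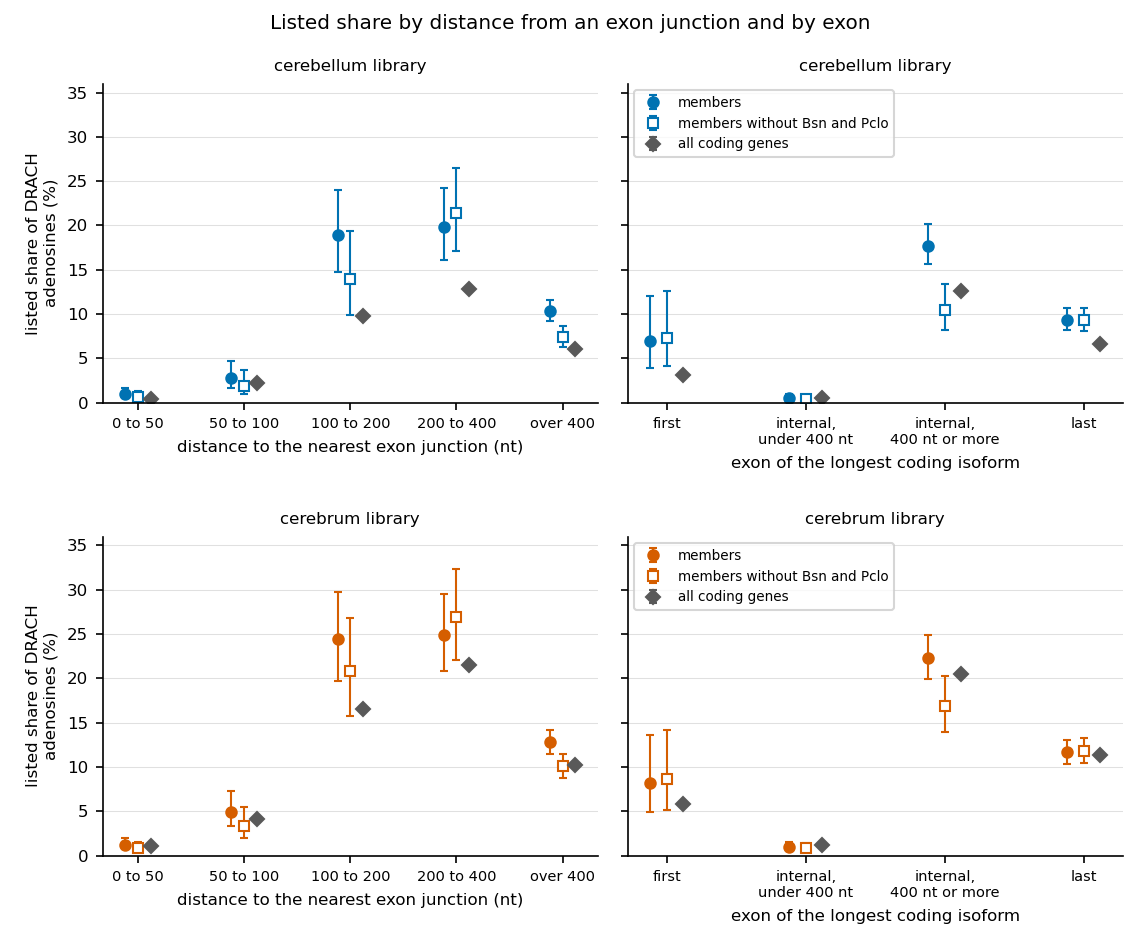
Listed share of DRACH adenosines, in % with 95% Wilson intervals, by distance from the nearest exon junction in nt (left) and by exon class (right), in the cerebellum library (top) and the cerebrum library (bottom), for the members, the members without Bsn and Pclo, and all coding genes with a DRACH site. The members rise from 0.957% and 1.2% within 50 nt to 18.9% and 24.4% at 100 to 200 nt from a junction.

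Across roles, the endocytosis genes had the largest part of their DRACH adenosines within 100 nt of a junction, 61.2%, and the transmitter transporters the smallest, 25.2%, against 36.3% over the members and 35.8% over all coding genes. Amph had 64.3% of its DRACH adenosines so close to a junction and a listed share of 15.7% and 20%, with its listed adenosines gathered in its last exon. The part of exon structure in this share was not tested. In Bin1, 80.4% lay within 100 nt of a junction, and 2.17% and 4.35% were listed.

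Of the members' DRACH sites on coding transcripts, 52.3% (47.5 to 57.1) lay in the coding sequence in the cerebellum library and 53.2% (49 to 57.4) in the cerebrum library, and 44.1% and 43.8% in 3′ UTRs. For all coding genes 38.8% and 40.2% lay in the coding sequence. In the members without Bsn and Pclo the order turned, with 31.3% (26 to 37.1) and 36.7% (31.9 to 41.8) in the coding sequence and 63% and 58.8% in 3′ UTRs. The last exon held 49.9% and 49.2% of the members' DRACH sites, and 71.8% and 66.7% without these 2 genes, against 74.6% and 74% over all coding genes. Within the coding sequence, 34.9%, 43.7% and 21.4% of the listed DRACH adenosines in the cerebellum library stood at codon positions 1, 2 and 3, and 30.6%, 46.9% and 22.6% of the unlisted ones, with overlapping intervals at each position.

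Within 200 nt of the stop codon lay 11.8% (9.05 to 15.3) and 11.7% (9.23 to 14.7) of the members' DRACH sites, against 21.6% and 21.6% over all coding genes. On the longest coding isoforms, 11.3% and 11% of the members' listed DRACH adenosines lay in this window, against 6.83% of all their DRACH adenosines. These are ratios of 1.66 and 1.6. The ratios were 2.26 and 2.1 without Bsn and Pclo, where all coding genes had 2.09 in both libraries. In the first 200 nt behind the stop codon, 28 of 155 DRACH adenosines of the members were listed in the cerebellum library (18.1%, 12.8 to 24.9) and 35 in the cerebrum library (22.6%, 16.7 to 29.8). In the 200 nt before it, 10.1% (6.38 to 15.5) and 11.8% (7.79 to 17.6) of 169 were listed, and from 400 to 200 nt upstream 1.66% and 2.21% of 181. Several members had a site in or just behind the stop codon, each in both libraries. The nearest listed adenosine lay 1 nt before the end of the coding sequence in Doc2b. It lay 4 nt behind that end in Rims1, 7 nt in Nsf, 9 nt in Stxbp5 and 11 nt in Rims2. Bsn had no DRACH site within 200 nt, its nearest lying 234 nt behind the stop codon.

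**Figure D5:**
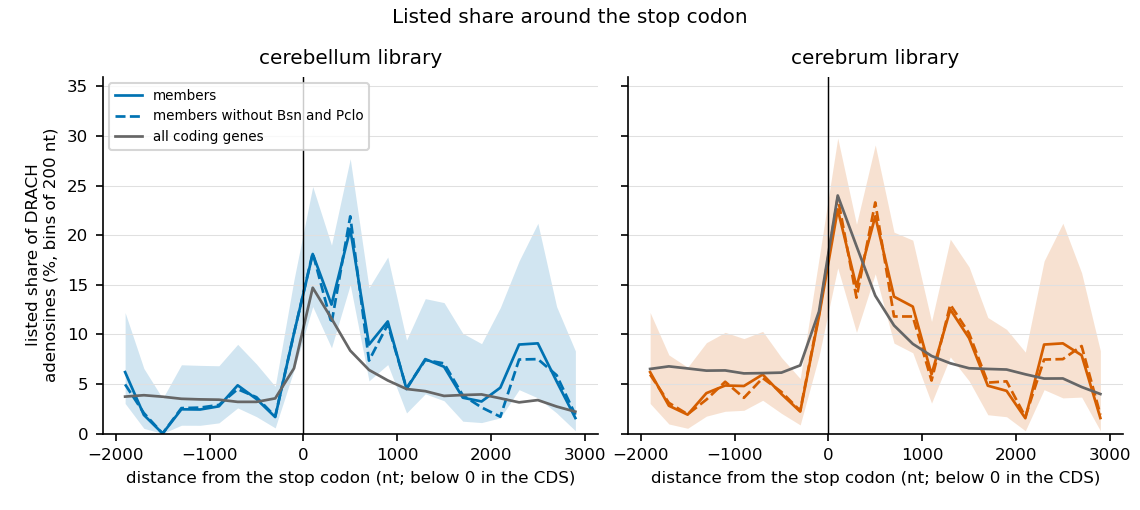
Listed share of DRACH adenosines, in % per bin of 200 nt, by distance from the stop codon in nt (values below 0 are in the coding sequence), in the cerebellum library (left) and the cerebrum library (right); solid coloured lines are the members with the 95% Wilson interval shaded, dashed lines the members without Bsn and Pclo, and grey lines all coding genes with a DRACH site. The members reach 18.1% and 22.6% in the bin behind the stop codon and 20.6% and 21.9% from 400 to 600 nt.

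The motif around an adenosine went with its listing. On the members' transcripts, 25.5% of the adenosines in GGACT were listed in the cerebellum library and 31.1% in the cerebrum library, followed by AGACT with 21.4% and 25.2%. Next came GAACT with 17.6% and 21.4%, then TGACT with 17.3% and 19.6%. At the low end, AAACA had 0.264% and 1.85%, while TAACC had 0 of 107 in both. Over all coding genes the values of GGACT were 12.6% and 22.1%, and those of AGACT were 10.9% and 17.7%. The other motifs ending in T were listed less often, AAACT with 7.55% and 11.3% and TAACT with 7.27% and 6.36%, below GGACC with 12.7% and 15.3% and GGACA with 11.6% and 17.4%.

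Related members were compared at aligned codons, in 18 pairs chosen after the counts were seen. Counted from each gene of a pair in turn and summed over the pairs, 219 listed DRACH adenosines of the coding sequence fell at aligned codons. Adenosines of the synapsin and Munc13 genes, which are in more than 1 pair each, are counted once per pair. The partner had a DRACH adenosine at the same place for 60 of them, and it was listed in at least 1 library for 28, which are 14 positions seen from both sides. Bassoon and Piccolo, which are 39.7% identical over 3608 aligned residues, shared 5 such positions, Erc1 and Erc2, 73.5% identical, shared 3, and Syt4 and Syt11, 56.2% identical, shared 2. The pairs Syn2 and Syn3, Sv2a and Sv2b, Cplx1 and Cplx2, and Rims1 and Rims2 shared 1 each. The Rims1 isoform aligned has 219 residues against 1550 in Rims2, so this pair was compared over 219 residues only. Codons of Rims1 are counted on that short isoform. A shared pair from Erc1 and Erc2 and one from Rims1 and Rims2, listed in both libraries in each gene, are printed to show how far the surrounding bases agree: 19 of 29 bases in the first pair and 20 of 29 in the second.
Erc1 codon 90, chr6:119824773-119824801, minus strand: ctaaaagcaccaTGACActtggccgttct
Erc2 codon 81, chr14:27653053-27653081, plus strand: caaagggaaccaTGACTctgggcagggcg
Rims1 codon 172, chr1:22288552-22288580, minus strand: atcttgttggaaGAACTtgatctgtccag
Rims2 codon 1503, chr15:39681606-39681634, plus strand: atactcttagatGAACTggaactatccaa

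Between the tissues, 32 members had more DRACH sites in the cerebrum library, 3 had equal numbers (Rab3a, Napb and Nsf), and 6 had more in the cerebellum library (Rph3a, Syt2, Syt4, Stx1a, Rims1 and Slc17a6). The cerebrum list was the longer one throughout, with 188295 positions against 79355 in the whole series and 1.77 times as many DRACH sites in coding genes, where the members had 1.36 times as many. Among the 31 members with at least 5 DRACH sites, 11 had at least 2 times as many in the cerebrum library (35.5%, 21.1 to 53.1), against 46.3% of 5520 coding genes. None had at least 2 times as many in the cerebellum library, against 1.05%. The share of members was thus not above the background in either direction. The 11 genes were Syn1, Syn2, Sv2b, Doc2b, Cplx1, Rimbp2, Unc13a, Unc13b, Ppfia2, Snap91 and Bin1. With exons of coding transcripts only, 7 met this rule, since Syn1, Unc13a, Ppfia2, Snap91 and Bin1 no longer did and Syt7 was added. At a ratio of 3, Syn2, Sv2b and Unc13b were left. The differences in the number of sites per gene follow 1 library each and were not tested.

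Of the members' DRACH sites in the cerebellum library, 78.3% (74.2 to 81.8) were also in the cerebrum library, and of those in the cerebrum library 57.5% (53.5 to 61.4) were also in the cerebellum library. Over all coding genes these shares were 81.5% and 46%. Listed positions outside the motif were shared less often, at 25.3% (20.7 to 30.7) of 288 in the cerebellum library and 7.82% (6.26 to 9.72) of 934 in the cerebrum library, where all coding genes had 26.6% and 7.92%. Among the members with at least 10 shared sites, Pclo had 90 of 107 and 122, Erc1 26 of 28 and 35, Cplx2 12 of 13 and 14, and Amph 12 of 13 and 19. Erc2 had 18 of 22 and 38 and Unc13b 10 of 13 and 39, lower parts in the cerebrum library than in these 4. Rims1, with fewer shared sites, had 2 of 11 and 8. The positions outside the motif and those in introns are described at the close.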

How the data were processed

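The 2 samples were 1 GLORI library of each tissue. Per the study's methods, reads were mapped to mm10 and to a PWK version of it, sites were called with GLORI-tools, both sets were united, and sites above a minimum methylation rate and read count were kept. The deposited lists hold genomic positions and strands and no other value, so depth is unknown. mm10 is the assembly GRCm38.

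Positions were assigned to gene intervals of GENCODE M21, not the authors' release, on the gene's strand. The 5-base motif was read from GRCm38. Regions were taken from the longest coding isoform with both UTRs that covers a site. Listed shares used the longest such isoform of each gene. Shares have 95% Wilson intervals, which cover counting error only. Ratios needed at least 5 DRACH sites. Related members were aligned with Biopython 1.88 (BLOSUM62). Scripts used Python 3.11.15 and numpy 2.4.6, and the counting was tested on simulated data.

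The members and the gene lists were chosen with earlier results of these data known. All members are named by role. Sequences were printed by a rule: for each role the shared site nearest to a stop codon in the member with the most shared sites, the densest windows of 30 bases, and the cerebrum-only site nearest to the stop codon of the 2 members with the largest ratio. Sites chosen after their values were seen are named as such. Sequences of Syt4 and Bin1 are not shown. At 11 member positions the mm10 base was G, and 31 positions also lay in another gene of the strand. Alternatives in isoform, window, cut, fold and site set were computed.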

Additional observations from a re-analysis of the deposited data

How the results depend on the processing

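For 29 results, 94 values were recomputed with 1 setting changed at a time, of which 59 stayed within the 95% interval of the value or within 1.5 times the count and 35 did not. With each tissue represented by 1 library, no library could be left out. No paired analysis was possible because each tissue has 1 sample and no result comes from a test. Values are given for the cerebellum and then the cerebrum library. Counting exonic sites only gave a DRACH share of 77.4% and 64.9% and a share of DRACH sites found in both libraries of 82.2% and 64.3%, and sites of both libraries alone gave a DRACH share of 82.7% in each. Leaving out Bsn and Pclo, chosen after seeing the data, gave a DRACH share of 54.2% and 33.5%, 33.5% and 42.3% of exonic sites in the CDS and 61.7% and 53.7% in the 3′ UTR, a listed share of 6.18% and 8.4%, a share near the stop codon of 17.6% and 16.2%, and 51.7% of the cerebrum DRACH sites found in both libraries. It also gave listed shares of 9.68% and 13.1% beyond 100 nt from a junction and of 1.5% within it in the cerebrum library. Windows of 100 nt around the stop codon held 6.02% and 5.66% of DRACH sites, and windows of 400 nt held 18.8% and 18.9%. A junction cut at 50 nt gave 0.957% and 1.2% within and 11% and 14% beyond, a cut at 200 nt gave 3.85% and 5.26% within, and principal isoforms gave 14% and 16.8% beyond 100 nt. Members with at least 2 times as many DRACH sites in the cerebrum library fell from 11 to 3 at a fold of 3, to 5 with at least 10 sites, and to 7 on coding exons alone. Some of these shifts follow from the setting itself. A window of 100 nt cannot hold more sites than the main window, nor one of 400 nt fewer, and a higher fold or minimum can only lower the number of members. The causes of the other shifts were not tested. Depth, which the lists do not give, limits every count of absent sites.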

Other observations

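In introns of the members, 162 positions outside the DRACH motif were listed in the cerebellum library and 604 in the cerebrum library, and 80.2% and 80% of them lay in 6 genes, which were the same in both: Syt1, Ppfia2, Rims1, Rims2, Erc2 and Pclo. Syt1 had 11 and 118, Ppfia2 13 and 98, Rims2 36 and 86, Erc2 30 and 82, Rims1 22 and 57, and Pclo 18 and 42. These genes span between 349 kb (Pclo) and 856 kb (Erc2), while Unc13c, at 490 kb, had 1 and 0 such positions and Syn3, at 444 kb, had 8 and 17. Only 6.17% (3.39 to 11) and 1.66% (0.902 to 3.02) of the intronic positions outside the motif were found in both libraries, against 25% and 10.8% of the intronic DRACH sites, 51.2% and 21.6% of the positions outside the motif on coding transcripts, and 82.2% and 64.3% of the DRACH sites there. Another listed position lay within 50 nt for 24.1% (18.1 to 31.2) and 20% (17 to 23.4) of the intronic positions outside the motif and for 21.4% (10.2 to 39.5) and 12.3% (6.37 to 22.5) of the intronic DRACH sites. On coding transcripts this held for 51.2% (42.4 to 60) and 49.1% (43.4 to 54.9) of the positions outside the motif and for 49.2% (44.4 to 54) and 52.3% (48 to 56.5) of the DRACH sites, so that neighbours differed by region and the motif classes overlapped within each.

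On coding transcripts, 121 and 287 positions of the members lay outside the motif, and 62 were found in both libraries. GTACT was the most frequent of their 5-base contexts, at 10 and 14 positions, and all 10 of the cerebellum library were among the 10 shared ones. CAACT had 6 and 7 positions, while GGATT had 6 and 11. No position was listed on the strand opposite to a member outside a gene of that strand, in either library.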
